A study of Homo sapiens with 4 samples.

Results

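The KZFP cluster at 19q13.12 is a stretch of human chromosome 19 that is crowded with genes for zinc finger proteins, and its DNA methylation was compared between wild-type (WT) and ZNF274 KO cells. Its members were every CpG listed by the deposited methylation calls with a position from 36600000 to 38400000 on chromosome 19 of hg19, an interval of 1800 kb. It held 29681 CpGs with at least 1 read in any library, out of 27710999 on the autosomes and X. The cells were HEK293T, a human embryonic kidney line that carries the SV40 large T antigen, and the labels gave 2 libraries to each of 2 groups, WT and ZNF274KO. The KO cells had lost the whole ZNF274 gene to CRISPR-Cas9 cutting with a guide on each side of it, followed by puromycin selection and sorting of single cells. No other treatment and no time point was given for either group. Whether the WT cells also went through transfection, selection and sorting was not given in the sources used here. If they did not, this handling cannot be told apart from the loss of ZNF274. Whether the 2 libraries of a group came from separate clones or cultures was not given in the sources used here, so p-values measured the spread between these libraries, which may be technical. The assay was EM-seq, enzymatic methyl sequencing. It protects methylated cytosines and deaminates the rest, so a methylated CpG is read as C and an unmethylated CpG as T.

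KRAB zinc finger proteins (KZFPs) carry an array of C2H2 zinc fingers, which reads DNA sequence, and a KRAB domain, which recruits the corepressor KAP1 (TRIM28) and with it the histone methyltransferase SETDB1. ZNF274 is itself such a protein and is known for binding the 3′ ends of KZFP genes, where the fingers are encoded, and for helping to place the heterochromatin mark H3K9me3 there. Methylation of CpGs (mCG) is usually high inside genes and between them, and low over the CpG-dense start of an active or poised gene.

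The genes of the interval were grouped by protein sequence into 27 KZFP genes, 4 genes with C2H2 fingers and no KRAB domain (OVOL3, ZNF146, ZNF260 and ZNF345) and 6 other genes that lay wholly inside it. The other genes were POLR2I, a subunit of RNA polymerase II, TBCB, a tubulin folding cofactor, CAPNS1, the small subunit of calpains, COX7A1, a subunit of cytochrome c oxidase, WDR87, a WD repeat protein, and the unnamed gene ENSG00000267360. ENSG00000291239, counted among the KZFP genes, is a gene model that starts beside ZNF345 and runs through ZNF829 into ZNF568, so its values share CpGs with theirs. ENSG00000267360 likewise holds the whole of ZNF585A and parts of ZNF420 and ZNF585B.

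The data of the cluster turned on 2 opposite changes, and 3 stretches of 300 bases show examples of both. At the edges of some CpG-dense starts, as that of ZNF850, mCG was lower in ZNF274 KO. In the terminal coding exons of ZFP82 and ENSG00000291239, which encode zinc fingers, mCG was higher. The stretch printed for each region was the one with the largest difference, so its values are a description only. The plus strand of GRCh37, which has the hg19 sequence, is given 5′ to 3′ with each CG in capitals, because those are the sites measured.
ZNF850 downstream flank, chr19:37262727-37263026: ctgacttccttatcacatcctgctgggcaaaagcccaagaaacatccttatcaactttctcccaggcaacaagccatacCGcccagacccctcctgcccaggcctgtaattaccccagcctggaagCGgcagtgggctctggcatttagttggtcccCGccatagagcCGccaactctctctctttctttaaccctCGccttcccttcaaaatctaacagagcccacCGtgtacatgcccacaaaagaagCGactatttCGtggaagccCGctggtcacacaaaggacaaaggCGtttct
ZFP82 terminal coding exon, chr19:36884486-36884785: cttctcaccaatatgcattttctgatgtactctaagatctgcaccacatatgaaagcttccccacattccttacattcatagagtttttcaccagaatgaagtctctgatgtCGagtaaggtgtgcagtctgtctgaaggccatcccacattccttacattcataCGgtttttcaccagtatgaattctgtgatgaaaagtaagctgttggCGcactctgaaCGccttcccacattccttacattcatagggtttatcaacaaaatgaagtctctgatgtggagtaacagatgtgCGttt
ENSG00000291239 terminal coding exon, chr19:37488169-37488468: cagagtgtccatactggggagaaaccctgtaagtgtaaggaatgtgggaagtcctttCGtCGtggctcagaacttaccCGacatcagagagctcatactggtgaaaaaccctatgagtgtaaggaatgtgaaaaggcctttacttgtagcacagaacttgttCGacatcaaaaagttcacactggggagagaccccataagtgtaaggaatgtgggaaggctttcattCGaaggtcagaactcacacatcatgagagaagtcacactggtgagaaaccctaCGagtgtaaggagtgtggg

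The ZNF850 stretch lay 701 to 1000 bases inside the gene from its start and its 10 CpGs together read 72.5% and 81.3% mCG in the WT libraries and 0% and 7.02% in the ZNF274 KO libraries. The value of 0% rested on 78 reads, where, here and below, a read counts once at each CpG it covers. A count of 0 out of 78 allows a level of up to 3.85% if these counts are independent. Counts from 1 read are not independent, so this limit may be too low. Of its CpGs that had at least 5 reads in every library, 6 of 6 were lower in both KO libraries than in both WT libraries.

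The exon stretches went the other way. The 5 CpGs of the ZFP82 stretch together read 8.70% and 22.2% in WT against 85.0% and 68.9% in KO, and each of the 5 was higher in both KO libraries. The 6 CpGs of the ENSG00000291239 stretch read 5.45% and 12.9% in WT against 65.7% and 60% in KO. A single CpG of that stretch reached 5 reads in each library, with both KO libraries above both WT libraries. The 3 stretches held between 31 and 96 reads per library. The converted 50-base sequence around a CpG was found at a single place in the genome for 9 of 10 CpGs in the ZNF850 stretch and for all CpGs of the exon stretches.

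The targeted gene was checked in every library. Over the 501 CpGs of ZNF274, on the distal long arm of chromosome 19 at chr19:58694396-58724928, 5158 and 4274 reads were counted in the WT libraries and 0 and 14 in the KO libraries. Summed over CpGs, the read counts of a library came to 241598512 to 295114493, with a median depth of 8 to 10 reads per CpG genome-wide and 6 to 9 in the cluster. Reads over the cluster numbered 274009 and 227964 in WT and 211597 and 202828 in KO. Relative to the autosomes, depth over the cluster was 0.883 times as high in KO as in WT, and over all of chromosome 19 it was 0.895 times as high. The part of this difference in depth in the results was not tested.

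Across the whole cluster mCG was higher in ZNF274 KO. The level, which is the share of reads with C among reads with C or T, was 62.6% and 61.9% in the WT libraries and 73.2% and 69.3% in the KO libraries. Both KO libraries lay above both WT libraries, with means of 71.3% ± 2.74 (SD, n = 2) and 62.3% ± 0.447 (SD, n = 2) and a difference of 9.02 percentage points. The exact two-sided permutation test gave p = 0.333, the smallest p that 2 libraries against 2 allow. The level over the autosomes and X was 59.3% and 60.4% in WT and 60.2% and 58.4% in KO, so the groups overlapped there. Measured from the genome level of the same library, the cluster stood 2.41 points above it in WT and 11.98 points above it in KO, a difference of 9.56 points. A level between 0% and 100% does not tell whether each cell is partly methylated or only some of the cells are.

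The difference was above 0 in each of the 6 parts of 300 kb, with both KO libraries above both WT libraries, but its size varied. It was 4.35 points in the first part, which holds OVOL3, ZNF146 and ZFP14, and 18.1 points in the last part, which holds ZFP30, ZNF607, ZNF573 and WDR87. In that last part the WT libraries read 51.1% and 50.1% and the KO libraries 70.8% and 66.6%. The WT levels of the 6 parts ranged from 50.6% to 69.2% and the KO levels only from 68.4% to 73.5%.

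The cluster was then cut into 360 tiles of 5 kb, and each tile was tested with edgeR's quasi-likelihood test fitted on 563514 tiles of the autosomes and X, with a call at a Benjamini-Hochberg adjusted p under 0.05. All 360 tiles had enough reads. Of these, 115 were called higher in ZNF274 KO, or 31.9% of the tiles, beside a background of 0.474% over all tiles tested. Another 5 were called lower, beside a background of 0.0126%. Without the multiple-test correction 202 tiles had p under 0.05. The share of all tiles tested with such a p was not computed, so this count has no background. Both KO libraries were above both WT libraries in 201 tiles, where the background was 13.5%, and below them in 67, where it was 22.3%. The median difference was 4.80 points in the cluster and -0.58 points over all tiles tested.

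**Figure D1:**
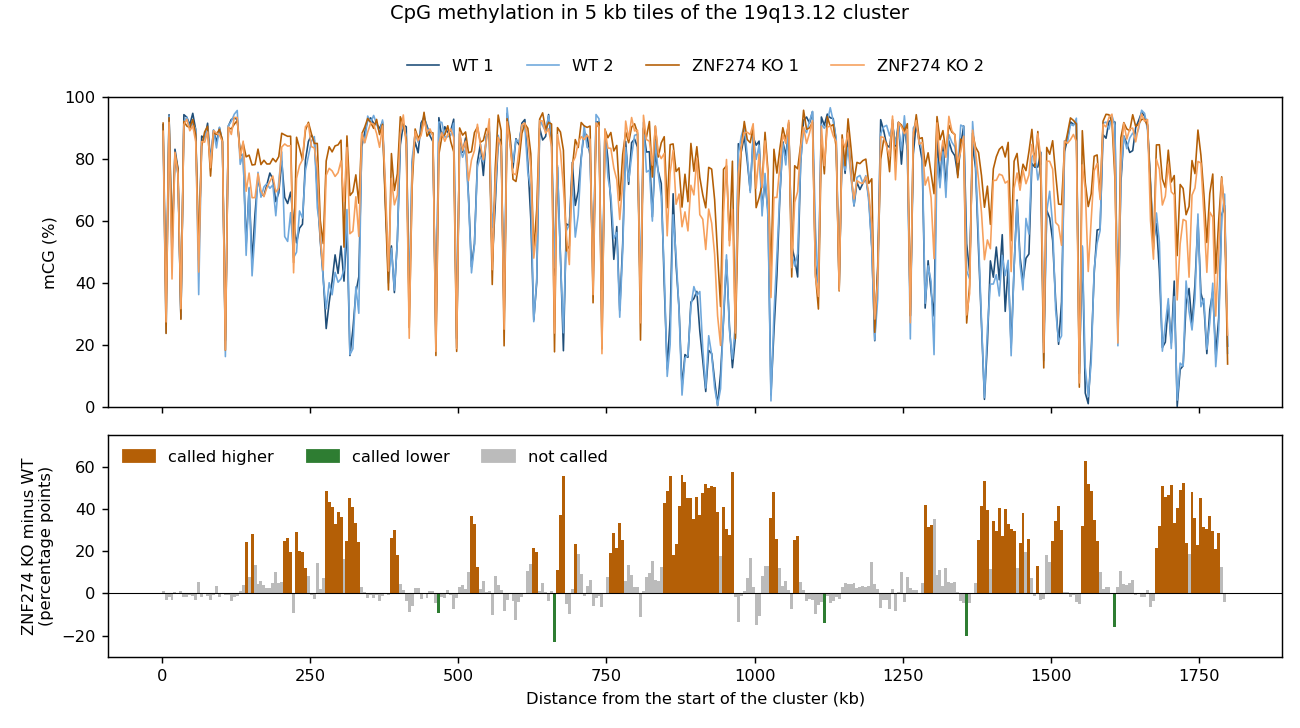
mCG in 5 kb tiles along the 19q13.12 cluster (top, in percent, 1 line per library) and the difference of the group means (bottom, in percentage points, bars coloured by call), against distance in kb from the start of the cluster. Of the 115 tiles called higher 110 lie in blocks, where the WT lines are low and the KO lines higher, and the 5 tiles called lower stand alone.

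The tiles called higher had low or intermediate mCG in WT. Among tiles called higher the mean level was 37.1% and 36.8% in the WT libraries and 76.0% and 67.9% in the KO libraries. The rise ranged from 11.3 to 62.6 points, with a median of 33.5. When tiles were sorted by WT library 1 alone, 25 of the 28 tiles under 20% were called higher, and their median in the other WT library, which did not sort them, was 13.8% against 65.5% and 54.0% in KO. Tiles called higher also numbered 36 of 53 at 20% to under 40%, 43 of 66 at 40% to under 60% and 11 of 69 at 60% to under 80%. Of the 144 tiles at 80% or more, 0 were called higher and 3 were called lower. Their median in WT library 2 was 88.5%, so the scale left little room for a rise. WT library 1, which sorted the tiles, was also part of the calls. Shares of calls by WT level were not computed outside the cluster. Whether tiles of the same WT level differ in this way elsewhere was therefore not tested. Levels also differed less from tile to tile in KO. The SD over the 360 tiles was 26.4 and 26.7 points in WT and 18.1 and 18.7 in KO, and the count of tiles under 50% was 120 in each WT library and 33 and 46 in the KO libraries.

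The 2 KO libraries did not read alike. ZNF274 KO 1 was above ZNF274 KO 2 in 111 of the 115 tiles called higher, and below it in 5 of the 5 tiles called lower. KO 1 was also above KO 2 in genome level, with 60.2% against 58.4%. In tiles of the cluster that were not called, the medians were 86.5% in KO 1 and 85.3% in KO 2. The share of all tiles with KO 1 above KO 2 was not computed. Leaving out KO 1 gave 89 tiles called higher and 4 called lower, and leaving out KO 2 gave 120 and 8.

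**Figure D2:**
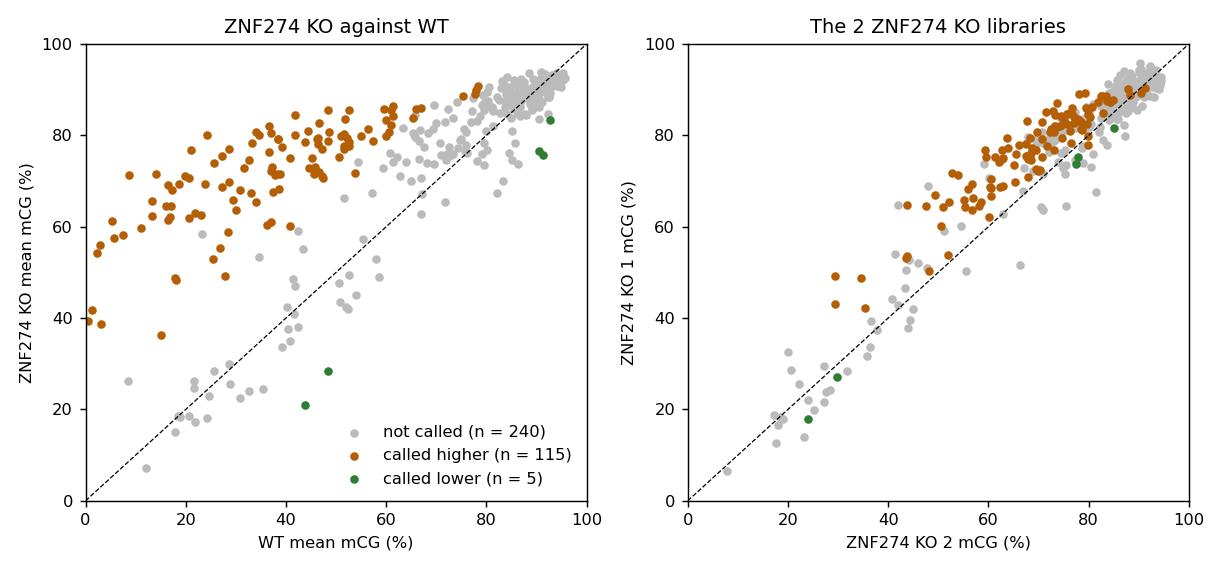
Left, mean mCG of each 5 kb tile in ZNF274 KO against WT, in percent. Right, the same tiles in KO library 1 against KO library 2. Points are coloured by call and the dashed line marks equal levels. Tiles called higher spread from near 0% to under 80% in WT and lie above the line, and 111 of the 115 are also above the line on the right.

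At single CpGs fewer sites were unmethylated and more were methylated in KO. Among the 15427 CpGs of the cluster that reached 5 reads in each of the libraries, 27.1% and 27.6% were at or under 20% mCG in WT, against 16.2% and 17.9% in KO. Within tiles called higher, where 4218 such CpGs lay, the share at or under 20% was 43.6% and 45.4% in WT against 6.09% and 11.0% in KO, and the share at or above 80% was 22.3% and 22.5% in WT against 63.4% and 51.3% in KO. These tiles were chosen by the same reads, so the shares within them are a description.

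Called tiles of one direction lay next to each other in 21 runs of 2 or more, which held 110 of the 120 called tiles. All 21 runs were higher in ZNF274 KO, and 8 of them were 5 tiles or longer. The longest spanned 95 kb at chr19:37445001-37540000, from the 3′ part of ZNF568, where ENSG00000291239 also ends, across the outermost start of ZNF420. Over its 1287 CpGs mCG was 30.0% and 30.4% in WT and 76.5% and 67.8% in KO. ZNF420, also known as APAK, is a KZFP reported to restrain p53-driven apoptosis. A run of 20 kb followed inside ZNF420 at chr19:37545001-37565000, with 32.5% and 33.3% in WT and 74.7% and 68.0% in KO.

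Near the telomeric end, 55 kb around the outermost start of ZNF573 at chr19:38275001-38330000 went from 31.1% and 32.9% in WT to 74.1% and 67.4% in KO. The neighbouring 50 kb at chr19:38335001-38385000, which reaches into the 3′ end of WDR87, went from 37.5% and 36.2% to 73.9% and 64.5%. These 2 runs were parted by a single tile that was not called.

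The other runs of 5 or more tiles touched ZNF793, ZFP82, ZFP30, ZNF345 with ZNF829, and the DNA upstream of ZFP82. The 40 kb run over ZNF793 rose by 32.9 points, the 30 kb run over ZFP82 by 39.1 and the 30 kb run over the 5′ part of ZFP30 by 41.2. The run over the middle of ZNF345 and the 3′ end of ZNF829 rose by 24.96 points. The run upstream of ZFP82, outside any protein-coding gene, rose by 33.8 points. ZFP30 is the human counterpart of a mouse KZFP studied in fat cell formation.

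The 13 shorter runs rose by 18.8 to 40.1 points. The largest of these rises was at the 3′ end of ZNF570 and beyond it, at chr19:37975001-37995000, where mCG was 23.3% and 27.2% in WT and 72.2% and 58.4% in KO. After the 20 kb run inside ZNF420, it was followed by a run in the 3′ part of ZNF585A, with 37.4 points, and a run in the gap between ZNF527 and ZNF569, with 35.5 points. Shorter runs also lay over parts of ZFP14, ZNF382 with ZNF461, ZNF850, ZNF585B, ZNF540 with ZNF571, and ZNF540 with ZFP30. The other 3 lay outside protein-coding genes, the only genes used here, so they may overlap genes of other types.

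The tile with the largest rise, chr19:38155001-38160000 in ZFP30, read 4.58% and 12.8% in WT and 72.4% and 70.3% in KO, a difference of 62.6 points (edgeR adjusted p = 2.2e-06). It was followed by a tile in ZNF420 at chr19:37560001-37565000, with a rise of 57.4 points, and by 2 tiles in ZNF568 at chr19:37475001-37480000 and chr19:37455001-37460000, with rises of 56.1 and 55.8 points. The fifth, between ZNF850 and ZNF790 at chr19:37275001-37280000, went from 18.2% and 24% in WT to 82.9% and 70.7% in KO. It lay a few tiles from the largest fall of the cluster.

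That fall was at chr19:37260001-37265000, the tile with the start of ZNF850, with 42.5% and 44.99% in WT and 17.9% and 23.9% in KO, a difference of -22.9 points (edgeR adjusted p = 0.000269). The tile with the start of ZNF570 and part of ZNF569, chr19:37955001-37960000, read 52.7% and 43.99% in WT and 27.1% and 29.7% in KO, a difference of -19.9 points. The other 3 falls were from high levels. They were chr19:38205001-38210000 inside ZNF607, next to the tile with its start, from 91.9% and 90.8% to 73.7% and 77.5%, chr19:37715001-37720000 inside ZNF383, from 90.9% and 89.9% to 75.2% and 77.9%, and chr19:37065001-37070000 inside ZNF529, from 93.3% and 92.0% to 81.5% and 85.1%. The ZNF529 tile was not called without KO 1, where its difference was -7.54 points (edgeR adjusted p = 0.151), nor from Watson-strand reads alone (-6.71 points, edgeR adjusted p = 0.458), nor when CpGs in repeated sequence were left out (-10.8 points, edgeR adjusted p = 0.0661). Annotated starts of further transcripts lie inside the ZNF383 tile and just beside the ZNF529 tile.

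Tiles were also grouped by where they lay relative to protein-coding genes. Genes of other types were not used, so a tile between genes here may lie in one of those. Of 77 tiles between genes 35 were called higher and 0 lower. Of 252 tiles inside a gene with no outermost start 78 were called higher and 3 lower. Of the 31 tiles that held an outermost start 2 were called higher and 2 lower, and their median difference was -0.82 points. Over all tiles tested, of any place, 0.474% were called higher and 0.0126% lower. Shares by place were not computed outside the cluster. Whether such tiles differ in the same way elsewhere was therefore not tested. Tiles with starts held a median of 134 CpGs, tiles inside genes 53 and tiles between genes 81.

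Gene bodies, from transcription start to end, were tested in the same way over 19487 protein-coding genes, where the background of calls was 0.857% higher and 0.0257% lower. Of the 37 gene bodies of the cluster 13 were called higher and 0 lower. An unadjusted p under 0.05 was found for 20, a share not computed over all bodies. By class the calls were 10 of 27 KZFP genes, 1 of 4 genes with fingers but no KRAB domain, and 2 of 6 genes of neither class. The bodies overlap in places, so these calls are not all separate measurements, and 1 of the 2 genes of neither class was ENSG00000267360, which holds the called body of ZNF585A. The median difference was 0.37 points over the 37 bodies and -0.93 points over all bodies tested. By class it was 2.69 points over the KZFP genes, -2.05 over the genes with fingers but no KRAB domain and -2.35 over the others. Both KO libraries were above both WT libraries for 16 of the 37 bodies, with a background of 9.07%, and below them for 10, with a background of 30.6%.

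The largest rises were in ZFP82, ZNF793, ZNF420 and ZNF568. The body of ZFP82 (chr19:36874022-36909546) read 42.9% and 41.0% in WT and 78.5% and 74.1% in KO, with means of 41.96% ± 1.39 and 76.3% ± 3.11 (SD, n = 2 libraries), a rise of 34.3 points (edgeR adjusted p = 1.76e-06). ZNF793 (chr19:37997841-38039664) read 42.4% and 41.2% in WT and 76.8% and 67.7% in KO, a rise of 30.4 points. ZNF420 (chr19:37498759-37621270) read 41.5% and 43.3% in WT and 71.5% and 66.9% in KO, a rise of 26.8 points. These genes had no overlap between the groups and were among the least methylated bodies of the cluster in WT.

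ZNF568 (chr19:37407218-37495939) read 49.5% and 47.9% in WT and 76.3% and 71.4% in KO, a rise of 25.2 points (edgeR adjusted p = 7.47e-06). Its mouse counterpart Zfp568 is known for silencing a placental transcript of Igf2. The gene model ENSG00000291239, which overlaps it, rose by 17.4 points, ZNF573 by 17.5 and ZFP30 by 16.8. WDR87 rose by 12.8 points, from 48.0% and 45.8% to 60.6% and 58.9%.

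The remaining called bodies rose by less: ZNF345 by 11.0 points, ZNF540 by 9.55, ZFP14 by 8.80, ZNF585A by 8.09 and ENSG00000267360 by 6.63. ZNF345 encodes an array of fingers without a KRAB domain. Of the 13 calls, 6 were lost when KO 1 was left out. They were ZNF345, ZNF540, ZFP14, ZNF585A, ENSG00000267360 and WDR87, whose rises were then 5.62 to 11.97 points. Of these, ZNF540, ZNF585A and ENSG00000267360 were also not called without any other single library, and WDR87 was not called without WT 2 or without KO 2.

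The neighbours ZNF569 and ZNF570, which lie on opposite strands with overlapping 5′ ends, had lower values in KO that did not pass the test. The body of ZNF570 (chr19:37958487-37979554) read 60.6% and 59.2% in WT and 50.2% and 52.8% in KO, a difference of -8.38 points (edgeR adjusted p = 0.336). ZNF569 (chr19:37902057-37960177), whose product has been described as a repressor of MAPK signalling, read 71.2% and 66.8% in WT and 64.0% and 64.6% in KO (difference -4.65 points, edgeR adjusted p = 0.658). ZNF383, ZNF146 and ZNF529 were the other bodies with the lowest differences among those with groups apart, at -6.14, -5.65 and -3.89 points, and none passed the test.

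**Figure D3:**
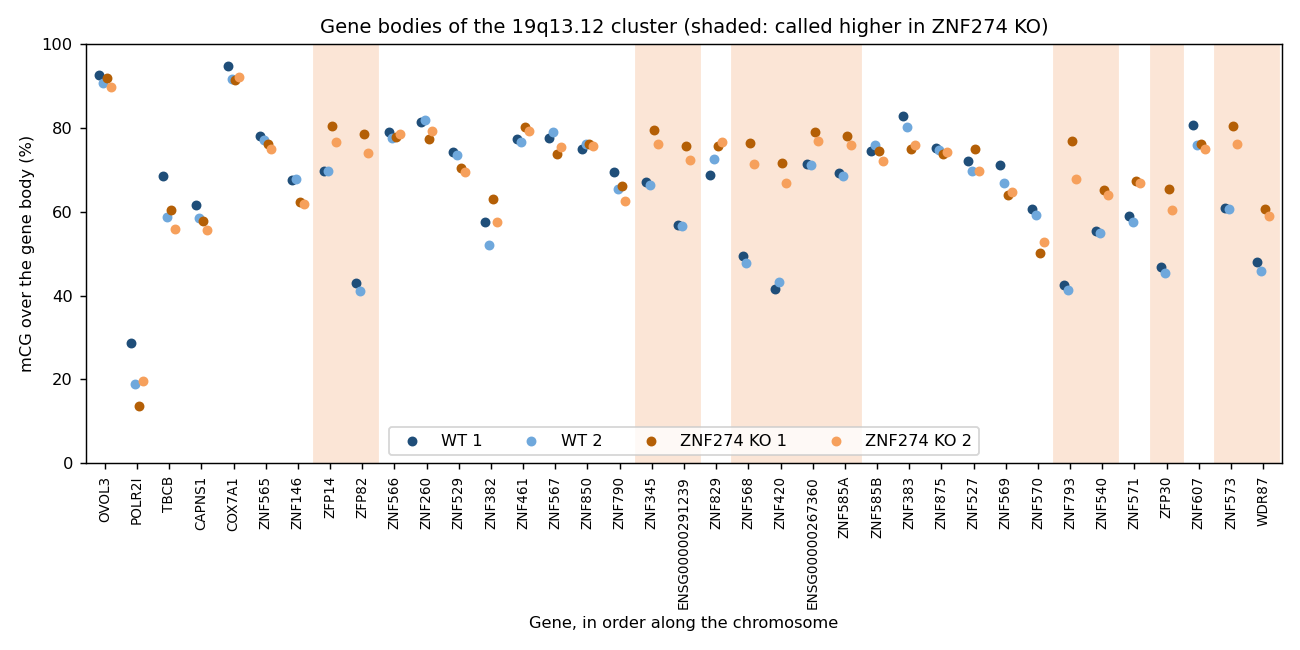
mCG over the body of each of the 37 protein-coding genes of the cluster, in percent, with 1 point per library and genes in chromosomal order. Shading marks the 13 bodies called higher in ZNF274 KO, in which both orange KO points lie above both blue WT points.

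The terminal coding exon, which encodes the fingers of a KZFP gene and is where ZNF274 is known to bind, was tested for 31 of the 37 genes, the other 6 having too few CpGs or reads. Of the 31, 4 were called higher and 0 lower, beside a background of 0.753% and 0.0523% over 9566 exons. An unadjusted p under 0.05 was found for 11, a share not computed over all exons. Both KO libraries were above both WT libraries in 17 exons, with a background of 13.9%, and below them in 3, with a background of 22.2%. The median difference was 3.60 points over 26 KZFP exons and -0.52 points over all exons tested.

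The exon of ZFP82 (chr19:36883646-36885012) read 26.7% and 31.1% in WT and 86.6% and 71.6% in KO, a rise of 50.2 points (edgeR adjusted p = 0.000459). The exon of ENSG00000291239 (chr19:37487219-37488498) read 2.82% and 10.6% in WT and 61.3% and 48.5% in KO, a rise of 48.2 points. This exon, with 10 predicted fingers, lies within ZNF568, downstream of the terminal coding exon of the longest ZNF568 transcript. That ZNF568 exon (chr19:37440414-37441987) read 75.2% and 74.7% in WT and 82.5% and 75% in KO, so its groups overlapped (difference 3.79 points, edgeR adjusted p = 0.95). The longest run of called tiles began in the tile after it.

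The exons of ZNF793 and WDR87 rose by 33.1 and 25.4 points. WDR87 read 14.5% and 12.3% in WT and 45.8% and 31.8% in KO over 46 CpGs. ZNF540, next by size, read 62.9% and 64.8% in WT and 84.9% and 84.1% in KO, with a difference of 20.6 points that did not pass the test (edgeR adjusted p = 0.0803). The exon of ZNF570 read 68.0% and 70.3% in WT and 87.7% and 80% in KO over 9 CpGs (edgeR adjusted p = 0.664), opposite in sign to its start. The exons of ZNF875, ZNF383 and OVOL3 had the lowest differences with groups apart, at -8.23, -8.07 and -1.53 points. The exon of ZNF569 held 4 CpGs and was not tested. The called exons rested on 93 to 415 reads per library, and without KO 1 the count called was 0. The ENSG00000291239, ZNF793 and WDR87 exons were not called without KO 2 either, ZNF793 and WDR87 not without WT 2, and ZNF793 not without WT 1.

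The 27 KZFP genes were pooled within 20 kb of their starts and ends, so the middle of longer genes was not profiled. From 20 kb to 1 kb upstream of the gene start mCG in KO was above WT. It was below WT within 1 kb of the start and above it again from 2 to 20 kb into the gene. Around the gene end it was above WT from 19 kb before to 19 kb past the end. In the outermost bins, 19 to 20 kb before and past the end, the groups overlapped. In the first kb of the genes it was 29.3% and 26.8% in WT and 19.4% and 23.2% in KO. At 3 to 4 kb into the genes it was 72.8% and 73.5% in WT and 85.2% and 84.7% in KO. The difference was 17.7 points in the last kb before the gene end and 17.9 points in the first kb after it. It was largest 12 to 13 kb beyond the end, where WT read 46.8% and 43.7% and KO 74.3% and 68.0%. Genes of a cluster are neighbours, so one gene's downstream bins can be another's upstream bins.

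**Figure D4:**
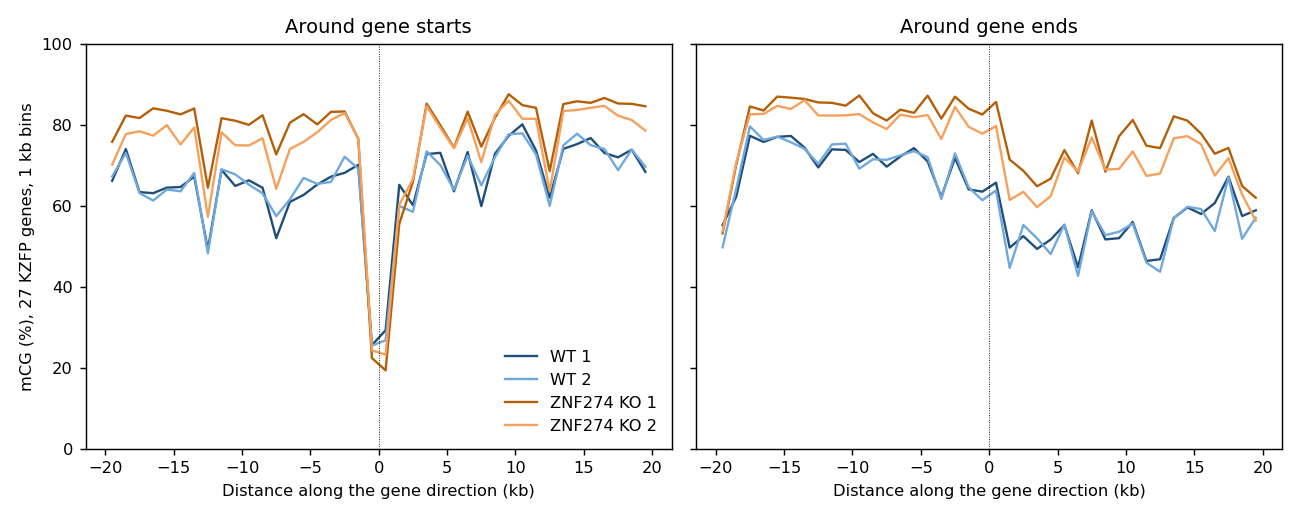
mCG in percent of the 27 KZFP genes of the cluster in 1 kb bins along the direction of the gene, around the outermost gene start (left) and the gene end (right), with 1 line per library. The KO lines lie below the WT lines within 1 kb of the start and above them in nearly all other bins, with the widest gap 12 to 13 kb beyond the gene end.

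Promoters, taken as 1 kb either side of the outermost start, showed calls in both directions. Of the 38 promoters of the cluster 2 were called higher and 4 lower, beside a background over 19411 promoters of 0.185% and 0.0618%. An unadjusted p under 0.05 was found for 19, a share not computed over all promoters. Both KO libraries were below both WT libraries for 22 of the 38, with a background of 20.8%, and above them for 5, with a background of 14.2%. The median difference was -2.72 points in the cluster and -0.205 points over all promoters tested. Several of these windows overlap, because genes here start back to back.

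The ZNF850 promoter (chr19:37262727-37264727) read 15.2% and 17.2% in WT and 0.896% and 2.25% in KO, a difference of -14.6 points (edgeR adjusted p = 0.00334). ZNF568 and ZNF829 start close together on opposite strands and share the same 92 CpGs, which read 19.9% and 23.8% in WT and 4.32% and 8.08% in KO (difference -15.6 points, edgeR adjusted p = 0.0363). They count as 2 of the 4 calls but are 1 measurement. The ZNF570 promoter (chr19:37957487-37959487) read 36.8% and 31.5% in WT and 11.9% and 14.2% in KO (difference -21.1 points, edgeR adjusted p = 0.0426). In all of these the groups did not overlap.

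The promoter window of ZNF569, whose outermost start lies inside ZNF570, read 31.7% and 24.3% in WT and 8.81% and 16.1% in KO, a difference of -15.5 points that did not pass the test (edgeR adjusted p = 0.274). The promoter of ENSG00000267360, which starts beside 3 coding transcripts of ZNF585B, read 24.7% and 31.8% in WT and 8.43% and 17.7% in KO (edgeR adjusted p = 0.342). Without KO 1 the ZNF850 promoter alone was called lower. The ZNF570 call was also lost without WT 1 (edgeR adjusted p = 0.12), when the fit was centred on the genome-wide odds of methylation (edgeR adjusted p = 0.05004) and when CpGs in repeated sequence were left out (difference -18.1 points, edgeR adjusted p = 0.0783).

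The fall was largest at the edges of these starts. Within 500 bases of the start of ZNF850 the WT libraries already read 4.75% and 1.74%. The KO libraries read 0% of 425 reads, which allows up to 0.706% if counts at neighbouring CpGs are independent, and 0.186%. From 500 to 1000 bases into the gene, WT read 69.5% and 79.4% and KO 0% of 93 reads, which on the same terms allows up to 3.23%, and 8.11%. From 1000 to 2000 bases WT read 88.8% and 92.4% and KO 10.8% and 28.8%. On the ZNF570 side, the stretch 500 to 1000 bases into the gene went from 94.9% and 93.3% in WT to 24.3% and 34.3% in KO. The stretch 1000 to 2000 bases upstream of it went from 89.6% and 93.9% to 49.2% and 61.9%. From 1000 to 2000 bases into ZNF570, where further starts of ZNF569 and ZNF570 lie, all libraries were low. There WT read 21.0% and 14.7% and KO 10.8% and 14.2%. For ZNF568 the stretch 500 to 1000 bases into the gene went from 91.7% and 64.0% to 7.35% and 25%, on 50 to 96 reads per library. The stretch 500 to 1000 bases upstream fell by less at each of these starts. There the difference was -22.5 points for ZNF850 and -33.7 points for ZNF568. For ZNF570 it was -15.9 points, from 19.4% and 16.3% in WT. With promoters cut to 500 bases either side, none of the 4 was called, and the ZNF850 difference was -3.15 points.

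All annotated coding starts of the C2H2 genes were then pooled by CpG density, which uses no methylation value. Of the 47 starts with at least 40 CpGs in 2 kb, 33 were lower in both KO libraries than in both WT libraries and 6 were higher. Many of these windows share CpGs, so from one end of the cluster to the other each start within 2000 bases of the last one kept was left out, a choice made after seeing the data. Of the 35 starts then left 22 (62.9%) were lower and 6 (17.1%) higher. At outermost starts of the same CpG density the shares lower and higher were 36.4% and 29.4% for KZFP genes elsewhere on chromosome 19 and 21.2% and 13.06% for genes of neither class outside the cluster, overlapping windows included. The 47 dense starts of the cluster included inner starts, such as that of ZNF790 12.4 kb inside the gene, with 18.8% and 16.8% in WT and 7.23% and 7.87% in KO. Of the 22 starts with fewer CpGs 6 were lower and 6 higher, beside 20.8% and 14.2% over all promoters tested. Around the 47 dense starts mCG within 250 bases was 18.4% and 18.7% in WT and 18.4% and 18.96% in KO. At 500 to 750 bases it was 42.9% and 44.2% in WT and 29.9% and 34.0% in KO. At 750 to 1000 bases it was 66.7% and 66.1% in WT and 49.2% and 57.1% in KO, a difference of -13.3 points. From 1250 bases outwards the KO libraries were the higher ones in every bin, and at 3000 bases and beyond the difference was 11.6 points. These pooled levels mix starts that went both ways. Within 500 bases of the start, the outermost starts of ZNF420 and ZNF573 rose by 24.8 and 28.3 points. In the same stretch the differences were -3.15 points for ZNF850, -4.42 for ZNF568 with ZNF829 and -10.3 for ZNF570.

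**Figure D5:**
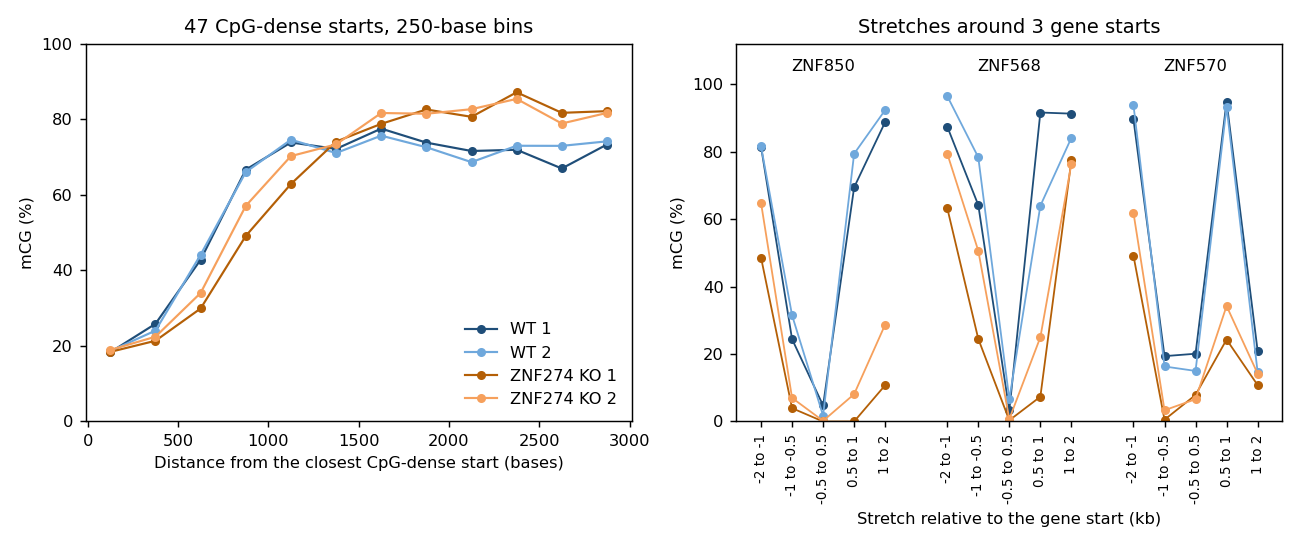
Left, mCG in percent against distance in bases from the closest of 47 CpG-dense starts, in 250-base bins with 1 line per library. Right, mCG at the starts of ZNF850, ZNF568 and ZNF570 in 5 stretches from 2 kb upstream to 2 kb downstream. The KO lines lie under the WT lines between 250 and 1250 bases from a start and over them beyond that. At the 3 single starts the KO lines lie under the WT lines in all 5 stretches.

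The edge was picked after the fall of the cluster was seen to be largest there. The starts of ZNF850, ZNF568 and ZNF570, called lower above, were included. A comparison with other genes is therefore a description, and the choice favours a larger fall in the cluster. This edge was set against the same stretch, 500 to 1000 bases from CpG-dense outermost starts, in other genes. At the 30 such starts of C2H2 genes in the cluster it read 40.9% and 39.5% in WT and 26.3% and 29.5% in KO, a difference of -12.3 points. At 187 starts of KZFP genes elsewhere on chromosome 19 it read 42.1% and 42.4% in WT and 41.95% and 42.4% in KO, and at 14425 starts of other genes the difference was -0.72 points. The level of the cluster minus that of the other chromosome 19 KZFP genes was -1.22 and -2.86 points in WT and -15.6 and -12.9 points in KO. These did not overlap (exact two-sided permutation p = 0.333, the smallest p possible with n = 2 per group). Both KO libraries were below both WT libraries at 17 of the 30 starts in the cluster (56.7%), at 36.9% of those of the other chromosome 19 KZFP genes and at 20.01% of those of other genes. They were above them at 5 of the 30 (16.7%), at 31.0% and at 13.8%, so the starts of the other chromosome 19 KZFP genes went both ways. The median difference per start was -5.67 points in the cluster and -1.66 points at the other chromosome 19 KZFP genes, and the pooled level gives starts with more reads more weight. Some of these starts also share CpGs. With overlapping windows left out as above, the difference at the edge was -9.44 points in the cluster, and its level minus that of the other chromosome 19 KZFP genes was 0.24 and -0.914 points in WT and -12.03 and -8.42 points in KO, again without overlap. Both KO libraries were then below both WT libraries at 11 of 24 starts (45.8%) and above them at 5 (20.8%), against 35.6% and 31.7% of those of the other chromosome 19 KZFP genes, with median differences of -3.23 and -1.50 points.

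The 2 promoters called higher were the outermost starts of ZNF573 and ZNF420, both of which have other starts further in. The ZNF573 window read 51.4% and 48.9% in WT and 86.9% and 77.8% in KO (rise 32.2 points, edgeR adjusted p = 0.0151), and lies in the 55 kb run described above. It is the start of 1 annotated coding transcript. The start of 4 coding transcripts of ZNF573, 37.7 kb downstream, read 9.93% and 4.04% in WT and 3.57% and 4.398% in KO. The outermost ZNF420 window read 44.6% and 55.2% in WT and 76.3% and 73.9% in KO (rise 25.2 points, edgeR adjusted p = 0.0471) and is the start of 2 coding transcripts, while the start 70.6 kb downstream, used by 3 coding transcripts, read 2.68% and 7.17% in WT and 0.527% and 2.62% in KO. Neither rise was called without KO 1 and the ZNF420 rise was not called without WT 1.

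Other genes had an outer start with high mCG and an inner start with low mCG. The outermost start of ZFP30 read 60.2% and 56.1% in WT and 63.4% and 61.2% in KO, and that of ZNF540 67.9% and 72.9% in WT and 81.6% and 73.6% in KO. The start of 6 coding transcripts of ZFP30, 36.1 kb inside the gene, read 4.59% and 6.84% in WT and 1.77% and 2.40% in KO. ZNF565, a KZFP gene near the centromeric edge of the cluster, was high at its outermost start in all libraries (87.3% to 89.5%) and under 1.1% in all at a start 31.2 kb inside. The rule for promoters took the outermost start alone, so the inner starts are given as a description.

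The pooled level of the cluster rose by less than those of the KZFP clusters at 19p12 and 19q13.41 and by more than that at 19q13.31. At 19p12 mCG went from 31.6% and 30.9% in WT to 64.2% and 55.6% in KO, and 661 of 946 tiles (69.9%) were called higher. At 19q13.31 37 of 200 tiles (18.5%) and at 19q13.41 199 of 420 (47.4%) were called higher. Tiles called lower numbered 1, 0 and 1 in these clusters. The level of 19q13.12 minus that of 19p12 was 30.9 and 31.0 points in WT and 8.98 and 13.7 points in KO, minus that of 19q13.41 it was 20.8 and 20.8 points in WT and 10.6 and 14.03 points in KO, and minus that of 19q13.31 it was 8.003 and 7.20 points in WT and 9.98 and 10.1 points in KO. By the median difference per tile the order against 19q13.31 turned round, with 4.80 points at 19q13.12, 5.37 at 19q13.31, 14.7 at 19q13.41 and 34.1 at 19p12. The groups did not overlap in any of the 3 comparisons of levels (exact two-sided permutation p = 0.333 each, the smallest possible with n = 2 per group). Outside these 4 clusters chromosome 19 read 64.9% and 64.1% in WT and 66.6% and 64.4% in KO, where the groups overlapped.

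Repeated sequence made up much of the cluster. For 52.8% of its CpGs the converted sequence of 50 bases around the site occurs a single time in the genome, and over those CpGs mCG went from 55.9% and 55.1% in WT to 66.5% and 63.1% in KO. Over the others it went from 71.1% and 70.6% to 81.8% and 77.5%, with differences of 9.35 and 8.78 points. There were 2 arrays made almost wholly of repeated sequence, at chr19:36760001-36800000, where 1.08% of 2775 CpGs had such unique sequence, and at chr19:37760001-37795000, where 3.53% of 2438 did. They read 71.01% and 71.3%, and 71.3% and 71.8%, in WT. In KO they read 80.4% and 71.9%, and 78.2% and 72.1%, and the count of called tiles was 0 of 8 and 0 of 7. Reads came in pairs and were longer than the 50 bases checked, so some may reach unique sequence. A read pair that does not cannot be placed on 1 copy with certainty.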

How the data were processed

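EM-seq libraries of 2 WT and 2 ZNF274 KO samples were prepared with the NEB kit and sequenced as read pairs on a NovaSeq. The authors mapped reads to hg19, with rDNA added as an extra chromosome, using Msuite2 with HISAT2, and deposited for each CpG and strand the read counts with C and with T, not pooled and not normalised. The filters on mapping quality and duplicates were not given in the sources used here.

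From these counts mCG was computed as C reads over C and T reads of both strands, summed over the CpGs of a region. Regions were 5 kb tiles, bodies, promoters and terminal coding exons of 19756 protein-coding genes (GENCODE release 44 lifted to GRCh37) with at least 20 reads and 5 CpGs in every library. Each kind was fitted across the autosomes and X with edgeR 4.0.16 (R 4.3.3), using the quasi-likelihood test on C and T counts with a coefficient per library, 1 common dispersion and Benjamini-Hochberg adjustment. Single levels were compared by exact permutation tests (Python 3.11.15, SciPy 1.17.1), and an alternative fit used limma 3.58.1 on log2((C + 1) / (T + 1)). KRAB domains and C2H2 fingers (at least 3) were found in the coding sequences with pyhmmer 0.12.3 and a pattern search.

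Named genes were ZNF568, ZNF569, ZNF570, each gene with a called region, and the 5 largest rises and falls of each kind with groups apart, ZNF274 being the check of the labels. Named tiles were all runs, the 5 largest rises and all called falls. Inner starts, the genes of a class and ENSG00000267360 were named to account for members. The interval, the lists and the tests were chosen with earlier results of these data known. Depth, alternatives and what they changed are given with the results. Intervals and limits for a count of 0 cover counting error only.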

Additional observations from a re-analysis of the deposited data

How the results depend on the processing

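The level of the cluster was 7.09 to 11.0 points higher in KO when each library was left out in turn, and its comparisons with the genome and the other clusters kept their direction under every alternative run. Counts of calls moved more. With limma, 35 tiles, 3 gene bodies, 0 promoters and 0 exons were called higher and 0 tiles and 0 promoters lower, and all 35 tiles were among the 115. Tiles of 10 kb gave 61 higher and 3 lower, and tiles of 2 kb 251 and 19, the number of tiles tested differing by construction. Reads of the Watson strand alone gave 8 bodies and 2 exons higher, and 0 promoters higher and 1 lower. Reads of the Crick strand alone gave 7 bodies higher, and 0 promoters higher and 1 lower. Without CpGs in repeated sequence 8 bodies and 1 promoter were called higher. A minimum of 10 reads, or leaving out CpGs over 5 times the median depth, gave 1 promoter higher, and promoters of 500 bases either side gave 0 higher and 0 lower. Apart from the different regions of these last fits, the cause was not tested. Leaving out each library in turn gave 89 to 130 tiles higher and 4 to 10 lower, 7 to 10 bodies higher, 0 to 2 promoters higher and 1 to 8 lower, and 0 to 3 exons higher, a lone library being assumed to vary like the others. Of the 33 regions named as called, 17 were called without KO 1, 26 without KO 2, 27 without WT 1, 27 without WT 2 and 8 with limma. With the Watson strand alone 3 values that had not passed the test changed sign, the body of ZNF529 (0.86 points), the promoter of ZNF565 (-0.83) and the promoter of ZFP30 (-2.01).

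The shared replicate numbers were not taken as pairs in the main fit. Differences between replicates 1 and 2 of WT and KO correlated at -0.11 over all tiles and 0.05 over those of the cluster. Such values cannot tell whether libraries were prepared or sequenced in pairs. A replicate block gave 136 tiles higher and 11 lower, 8 promoters lower and 6 exons higher, and the crossed block, chosen after seeing the data, gave 145, 12, 9 and 6. All 115 tiles called higher were called in both.

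With 2 libraries a group the smallest p for a single value was 0.333, and the called exons rested on 93 to 415 reads per library.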
